A study of Homo sapiens with 9 samples.

Results

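The genes described here work in the endoplasmic reticulum (ER): sensors of unfolded protein, chaperones, disulfide enzymes, degradation factors and translocon subunits. They were taken from a list of 39 symbols matched by name to the Ensembl gene IDs of the count files. Because VIMP is an older symbol of SELENOS, the list held 38 genes, out of 60880 gene IDs in each library, and all 38 were found. Poly-A RNA came from SNU5, an established line of human gastric carcinoma, after 24 h with AuNR-PEG-Ab (NR, gold nanorods carrying ramucirumab through polyethylene glycol), AuSP-PEG-Ab (SP, gold nanospheres carrying the same antibody) or ramucirumab alone (Ab). Ramucirumab, a monoclonal antibody, binds VEGFR2. It was at 8 μg/mL in all 3 groups, so each group received it and no untreated cells were among the libraries used here. Each group had 3 libraries, all of this single line, and the labels do not say whether these came from separate cultures, so the p-values measure the spread between libraries, which may be technical. Library depth ran from 19566064 to 26318227 counts in Ab, from 13863155 to 25735410 in NR and from 20601906 to 22914759 in SP. Ab library 1 stood apart from the other Ab libraries: the chi-square per gene of their counts, which counting noise alone puts near 1, was 7.44 and 6.95, against 2.17 between Ab libraries 2 and 3 and at most 5.16 between libraries of NR or of SP. Without it, 34 members passed the adjusted p in NR and 32 in SP, against 33 and 34 with it. Among all genes tested with it, 36.4% were higher and 36.4% lower in NR. In SP these shares were 36.4% and 36.6%. Wherever counts are listed, they follow the order of libraries 1, 2 and 3.

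Secretory and membrane proteins enter the ER through the SEC61 channel, fold there with the help of chaperones such as BiP (HSPA5) and of disulfide isomerases, and are sent back to the cytosol for destruction when they fail to fold. A rise in unfolded protein activates the sensors IRE1 (ERN1), PERK (EIF2AK3) and ATF6, which together drive the unfolded protein response. IRE1 splices the mRNA of XBP1, PERK slows translation and favours ATF4, and ATF6 is cut in the Golgi to release a transcription factor, and the resulting factors raise transcription of chaperone and degradation genes. Counts per gene do not separate spliced from unspliced XBP1 and do not measure cutting of ATF6 or phosphorylation of PERK.

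ATF6 and XBP1 act on a promoter element, the ER stress response element (ERSE), so the sequence was searched in the RefSeq promoter windows of the GRCh38.p14 assembly, from 250 bases before to 50 bases after each annotated start, on both strands. The letters CCAAT and CCACG, separated by any 9 bases, were found in 8 of 35 members with a window, 22.9%, against 25 of 27305 genes, 0.0916%. The 25 genes include the 8 members. The element was searched because it is known from this pathway, so the shares only describe the windows. The 5 of these members with the largest changes in NR against Ab are shown. They hold the same letters and moved in opposite directions: HSPA5, CANX and HSP90B1 fell and CALR and CRELD2 rose. The ERSE letters at both ends are in capitals, each sequence is written in the direction of its gene, and CGTGG before ATTGG is the element on the other strand.
HSPA5 (chr9:125241381-125241419, minus strand, 38 to 76 bases before the start): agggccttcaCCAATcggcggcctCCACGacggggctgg
CALR (chr19:12938374-12938412, plus strand, 197 to 235 bases before the start): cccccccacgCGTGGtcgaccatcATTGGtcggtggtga
CRELD2 (chr22:49918544-49918582, plus strand, 52 to 90 bases before the start): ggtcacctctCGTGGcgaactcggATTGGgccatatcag
CANX (chr5:179698768-179698806, plus strand, 123 to 161 bases before a start): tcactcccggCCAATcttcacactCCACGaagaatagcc
HSP90B1 (chr12:103930206-103930349, plus strand, 61 to 204 bases before the start, 2 elements): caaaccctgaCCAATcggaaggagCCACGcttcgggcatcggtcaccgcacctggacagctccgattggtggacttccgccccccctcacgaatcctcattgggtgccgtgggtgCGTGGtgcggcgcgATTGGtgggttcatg

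The other members with these letters were PDIA6, ERO1B and XBP1. The related ERSE-II letters, ATTGG and CCACG separated by any 1 base, were found in HERPUD1, HYOU1 and SDF2L1, 8.57% of the 35 members against 0.0696% of all genes searched. TGACGTGG, the core of the element bound by XBP1, was found in DNAJC10 and HYOU1, 5.71% of members against 0.927% of genes, and in HYOU1 it overlaps the ERSE-II match. The C/EBP-ATF letters TGATGNAAT, bound by ATF4 dimers, were in no member window, against 1.22% of genes.

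Against Ab, most of the members fell in both nanoparticle groups, while a smaller set of folding and degradation genes rose. In NR against Ab, 24 of the 37 members tested fell (64.9%, where 36.4% of all 15009 genes tested fell) and 9 rose (24.3%, where 36.4% of all genes rose), by edgeR's quasi-likelihood test at an adjusted p of at most 0.05. In SP against Ab, 24 of 37 fell (64.9%, against 36.6% of 15068 genes) and 10 rose (27.0%, against 36.4%). Both comparisons use the same Ab libraries. The median log2 fold change over members was -0.24 in NR and -0.22 in SP, against -0.0055 and -0.0067 over all genes tested. Both member medians were lower still with trends in length and GC content removed. In these bulk libraries, fewer cells with a transcript and less of it per cell cannot be told apart.

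With a minimum of 2-fold in addition, 6 members were lower in NR (16.2%, against 10.3% of all genes) and 3 were higher (8.11%, against 12.4%). The same counts held in SP, 6 lower (16.2%, against 10.6%) and 3 higher (8.11%, against 12.6%). The lower ones were ERN1, HSPA5, HYOU1, DNAJB9, HERPUD1 and SELENOS, and the higher ones SDF2L1, CALR and DERL3, in both groups. DERL3 passed the filter on low counts only through its NR or SP libraries, and with at least 10 counts required in every library the counts were 7 lower and 2 higher in NR and 6 lower and 2 higher in SP. HYOU1 in SP lay just inside the limit with a log2 fold change of -1.04, and was just outside it at -0.9964 without SP library 3. SEL1L in NR lay just outside, at -0.9965, and was inside it at -1.04 without NR library 2, at -1.01 without NR library 3 and at -1.03 without Ab library 1.

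**Figure D1:**
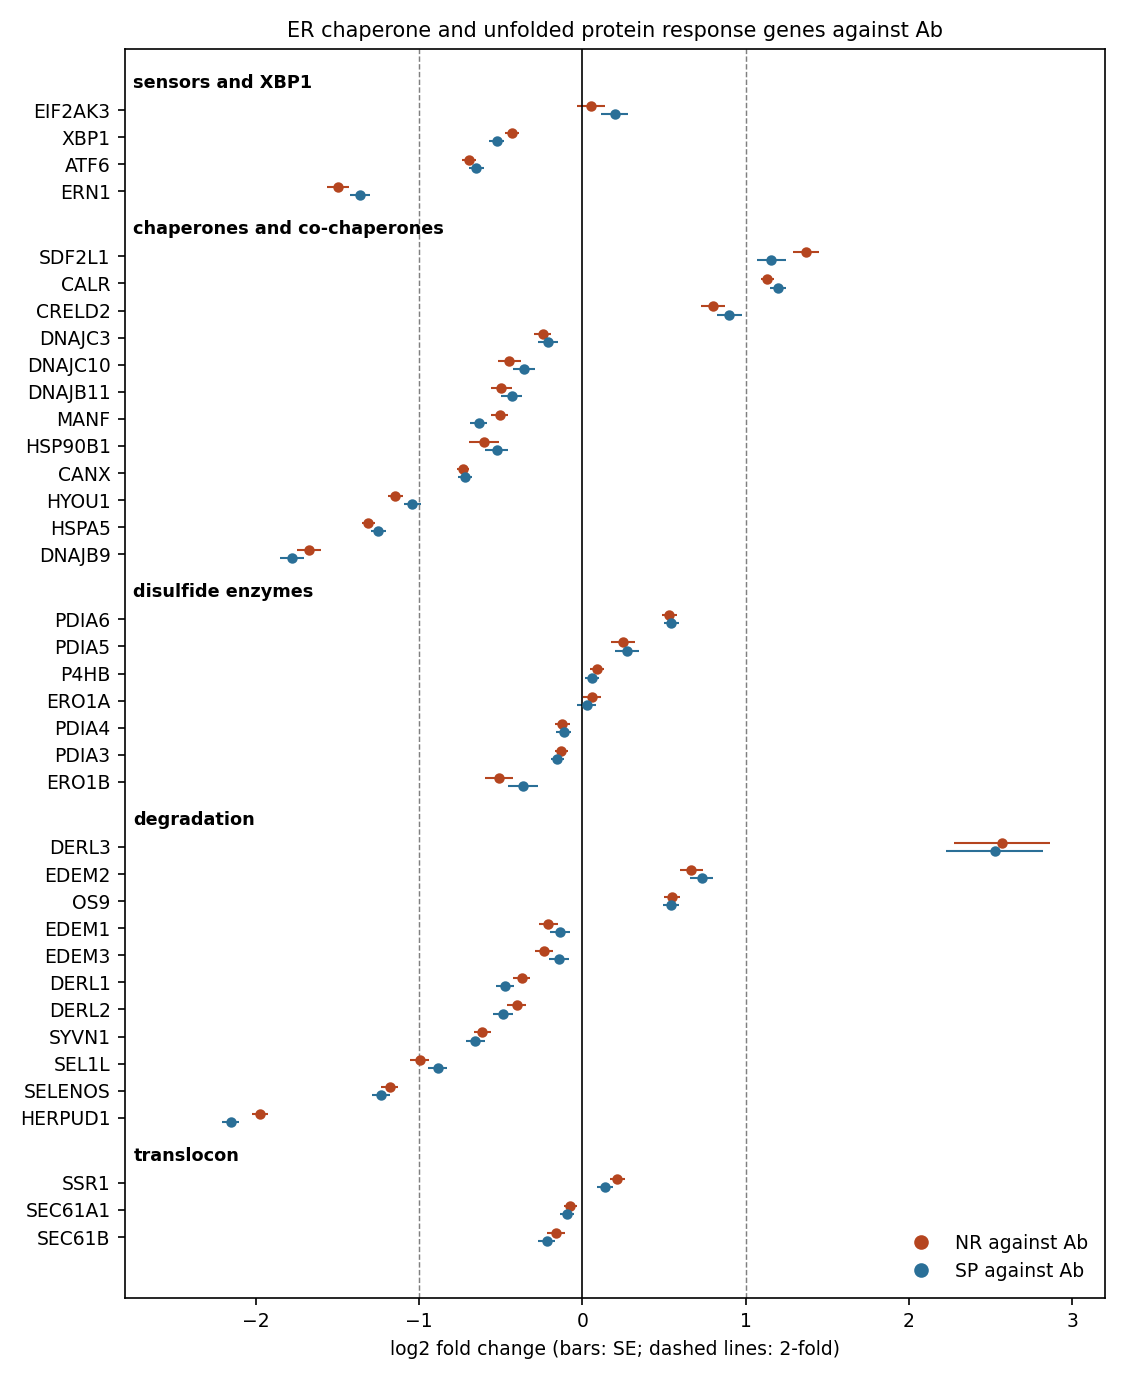
Log2 fold change of each of the 37 members tested against Ab (horizontal axis), by role, with NR in orange and SP in blue, bars giving the SE of the fit on 3 libraries per group and dashed lines marking 2-fold. HERPUD1 lies furthest to the left, at -1.97 and -2.15, and DERL3 furthest to the right, at 2.57 and 2.53, while the disulfide enzymes run from ERO1B at -0.51 and -0.36 to PDIA6 at 0.53 and 0.55.

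The sensors differed from each other. Of the 5 genes in this group, 4 could be tested: ERN1, ATF6 and XBP1 fell in NR and SP, and EIF2AK3 did not pass the test in NR and was slightly higher in SP. The group's median log2 fold change was -0.56 in NR and -0.59 in SP. Its summed level was 428 ± 8.47 CPM in NR and 418 ± 6.85 in SP, against 646 ± 6.02 in Ab (SD, n = 3; CPM is counts scaled to a common library total with TMM factors).

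ERN1 (chr17:62116440-62208179 in GRCh37), the kinase and nuclease that splices XBP1 mRNA, had 1610, 2185 and 1740 counts in Ab, 684, 411 and 541 in NR and 706, 772 and 656 in SP. On the CPM scale the Ab libraries were all above the others, at 83.9 ± 0.303 CPM against 29.9 ± 3.66 in NR and 32.4 ± 0.792 in SP (SD, n = 3). Its log2 fold change was -1.497 ± 0.07 (SE) in NR and -1.36 ± 0.06 in SP, with edgeR adjusted p of 5.86e-17 and 1.90e-17. ERN1 was the sensor that changed by over 2-fold.

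ATF6, the membrane-bound transcription factor, had 4086, 5616 and 4485 counts in Ab, 3379, 1856 and 2157 in NR and 2905, 3129 and 2927 in SP. It fell by 0.69 on the log2 scale in NR and by 0.65 in SP (SE 0.04 and 0.05), with no overlap between Ab and either group in CPM. XBP1, the transcription factor whose mRNA ERN1 splices, had 6479, 8362 and 6664 counts in Ab, 6221, 3422 and 3862 in NR and 4868, 5286 and 4692 in SP. On the log2 scale XBP1 fell by 0.43 in NR and by 0.53 in SP (SE 0.04 in each), again without overlap with Ab in CPM. XBP1 was also the most abundant of the group per length, at 182 ± 4.99 CPM per kb of transcript in Ab, 135 ± 1.504 in NR and 126 ± 1.48 in SP.

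EIF2AK3, which encodes PERK, had 355, 530 and 426 counts in Ab, 534, 267 and 348 in NR and 485, 551 and 453 in SP. In CPM the NR and Ab libraries overlapped, at 20.5 ± 1.28 and 19.8 ± 1.17 (SD, n = 3), and the edgeR adjusted p was 0.580 with a 95% interval of the log2 fold change from -0.11 to 0.22. In SP it was 22.6 ± 0.995 CPM, all 3 libraries above Ab, with a log2 fold change of 0.20 ± 0.08 (SE) and an edgeR adjusted p of 0.0318. That call was lost by DESeq2 (adjusted p 0.0888) and by edgeR without SP library 2 (0.165), without Ab library 1 (0.109) or without Ab library 2 (0.0540), and the log2 fold change was 0.0245 once its trends with GC content and length were removed.

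ATF6B, the paralog of ATF6, was below the filter on low counts and was not tested. It had 7, 6 and 6 counts in Ab, 5, 108 and 4 in NR and 1, 9 and 36 in SP, so that single libraries of NR and SP stood apart from their own group. ATF6B starts at position 32083041 on chromosome 6 in GRCh37. Other listed genes nearby were also low: RNF5 (start 32146182) had 0 counts in every library, and HSPA1A and HSPA1B (starts 31783320 and 31795515) had at most 5. BAG6 (start 31606805) had 50 to 85. Whether reads of this region were lost in the alignment was not tested, and the counts of ATF6B are not read as its level.

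The chaperones and co-chaperones split into 9 that fell and 3 that rose, in NR as in SP, and none missed the test. Of all genes, 36.4% fell in NR and 36.6% in SP, and 36.4% rose in each. HSPA5, HYOU1, DNAJB9, CANX, HSP90B1, MANF, DNAJB11, DNAJC10 and DNAJC3 fell, and CALR, SDF2L1 and CRELD2 rose. Their median log2 fold change came to -0.50 in NR and -0.48 in SP. The summed level of the 12 genes was 5244 ± 16.7 CPM in NR and 5387 ± 136 in SP, against 8311 ± 317 in Ab (SD, n = 3), that is 63.1% and 64.8% of the Ab level.

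HSPA5 (chr9:127997132-128003661 in GRCh37) encodes BiP, the Hsp70 chaperone of the ER that also binds the sensors. It had 49902, 70438 and 56030 counts in Ab, 27578, 14926 and 17399 in NR and 26067, 24821 and 22479 in SP. In CPM this was 1073 ± 9.75 in NR and 1116 ± 66.8 in SP, well under the 2669 ± 64.6 of Ab (SD, n = 3), with no overlap. The log2 fold change was -1.31 ± 0.04 (SE) in NR and -1.25 ± 0.05 in SP, with edgeR adjusted p of 7.93e-22 and 2.37e-19. HSPA5 took 32.1% ± 0.466 of the counts of the 12 chaperone genes in Ab, 20.5% ± 0.190 in NR and 20.7% ± 0.760 in SP.

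DNAJB9, a BiP co-chaperone known as ERdj4, fell the most in the group. It had 1125, 1737 and 1383 counts in Ab, 490, 265 and 359 in NR and 379, 423 and 418 in SP. The log2 fold change was -1.67 ± 0.08 (SE) in NR and -1.78 ± 0.07 in SP, and the Ab libraries stood apart from both groups in CPM. HYOU1, a large Hsp70-like chaperone that exchanges nucleotide on BiP, had 4533, 5715 and 4662 counts in Ab, 2608, 1402 and 1695 in NR and 2542, 2510 and 2162 in SP, with a log2 fold change of -1.15 and -1.04 (SE 0.05 in each).

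The other 6 that fell moved by less. CANX, the membrane lectin chaperone calnexin, fell by 0.73 on the log2 scale in NR and by 0.72 in SP. HSP90B1, the Hsp90 of the ER, fell by 0.60 and 0.52, from 1391 ± 159 CPM in Ab (SD, n = 3) to 915 ± 49.8 in NR, where Ab library 1 was at 1208 CPM and the other Ab libraries at 1485 and 1482. MANF, an ER protein that can be secreted under stress, fell by 0.51 and 0.64. The J-domain co-chaperones DNAJB11, DNAJC10 and DNAJC3 fell by 0.50, 0.45 and 0.24 in NR and by 0.43, 0.36 and 0.21 in SP.

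CALR (chr19:13049392-13055303 in GRCh37) encodes calreticulin, the soluble lectin chaperone that shares its sugar ligand with calnexin. It had 7891, 10290 and 8438 counts in Ab, 22881, 12340 and 14179 in NR and 21685, 20843 and 18205 in SP. These were 884 ± 0.390 CPM in NR, 923 ± 60.4 in SP and 404 ± 8.77 in Ab (SD, n = 3), so every nanoparticle library was above every Ab library. The log2 fold change was 1.13 ± 0.04 (SE) in NR and 1.20 ± 0.05 in SP, with edgeR adjusted p of 5.14e-20 and 1.30e-18.

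SDF2L1, a partner of J-domain proteins in the BiP complex, had 271, 359 and 255 counts in Ab, 888, 482 and 557 in NR and 656, 741 and 565 in SP. It was lowest in all 3 Ab libraries on the CPM scale, and its log2 fold change was 1.37 ± 0.08 (SE) in NR and 1.16 ± 0.09 in SP. CRELD2, a soluble ER-resident protein, rose by 0.80 in NR and 0.90 in SP on the log2 scale (SE 0.07 in each).

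Ratios of counts within a library do not depend on how libraries are scaled, and they separated Ab from the other groups in each library. Apart from HSPA5 with HSP90B1, the pairs below joined genes called in opposite directions in these same libraries. Their ratios restate those calls and are not separate support. CALR had 0.470 ± 0.0104 counts per count of CANX in NR and 0.488 ± 0.0310 in SP, against 0.129 ± 0.00581 in Ab (SD, n = 3). HSPA5 had 6.60 ± 0.263 counts per count of CALR in Ab, with a range of 6.32 to 6.85, and 1.21 ± 0.0115 in NR and 1.21 ± 0.0229 in SP. HSPA5 had 184 to 219.7 counts per count of SDF2L1 in Ab, 31.0 to 31.2 in NR and 33.5 to 39.8 in SP. HSPA5 also fell relative to HSP90B1, from 1.93 ± 0.187 counts per count in Ab to 1.18 ± 0.0715 in NR and 1.16 ± 0.0710 in SP.

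**Figure D2:**
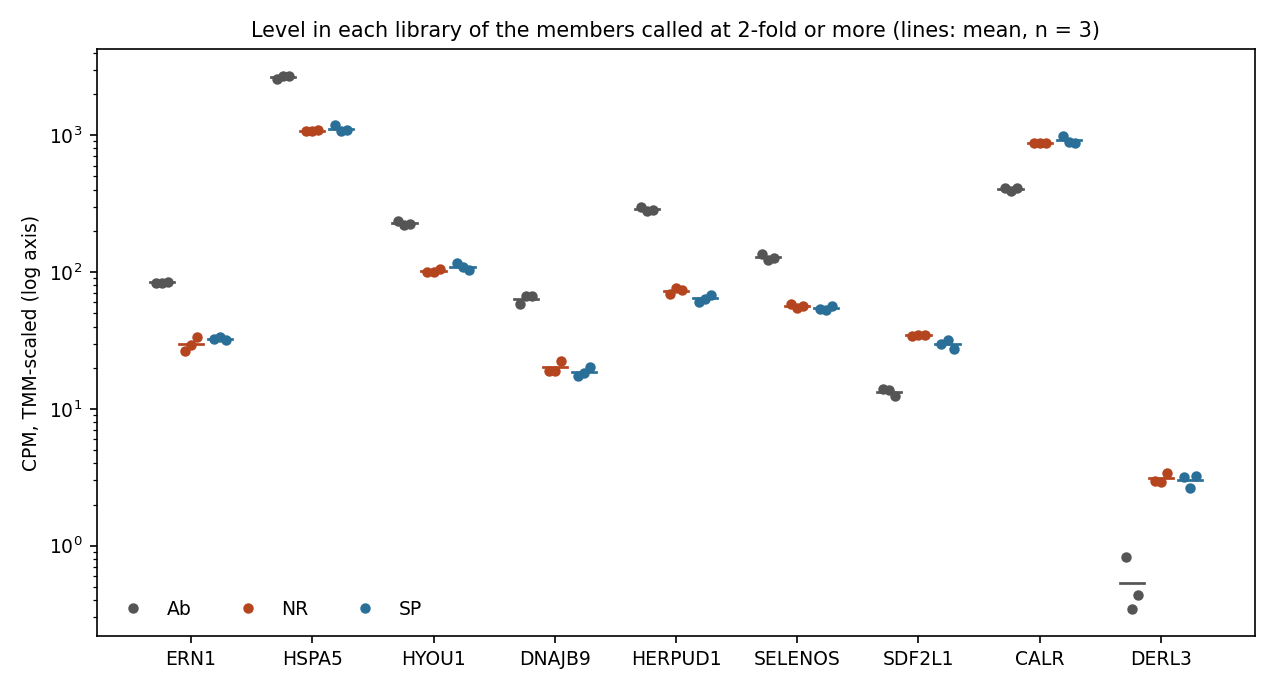
Level of each of the 9 members past 2-fold in each library, in CPM after TMM scaling on a log axis, with points for the 3 libraries of Ab (grey), NR (orange) and SP (blue) and lines for the mean. In each of the 9 genes the Ab points stand apart from the others, above them for ERN1, HSPA5, HYOU1, DNAJB9, HERPUD1 and SELENOS and under them for SDF2L1, CALR and DERL3. The 9 genes were picked by their 2-fold call, and such separation was common. Without overlap, 5575 of 15009 genes tested in NR were above Ab and 5633 under it. In SP, 5628 of 15068 were above and 5693 under.

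Levels between genes were compared per kb of the canonical transcript. In Ab, HSPA5 was the most abundant member at 681 ± 16.5 CPM per kb, followed by CANX at 636 ± 17.1, HSP90B1 at 500.2 ± 57.1, CALR at 213 ± 4.62 and PDIA3 at 209 ± 4.96 (SD, n = 3), of which the last pair lay within their spread. In NR the order at the top was CALR at 465 ± 0.205 CPM per kb, CANX at 383 ± 8.32, HSP90B1 at 329 ± 17.9 and HSPA5 at 274 ± 2.49. In SP it was CALR at 486 ± 31.8, CANX at 385 ± 0.788, HSP90B1 at 346 ± 8.60 and HSPA5 at 285 ± 17.1. Per kb, HSPA5 thus stood above CANX, HSP90B1 and CALR in Ab and below all of them in NR and SP, where CALR stood first. This order rests on the transcript lengths used. In CPM, CANX was above HSPA5 in Ab, at 3129 against 2669. HSPA5 was above CALR in NR, at 1073 CPM against 884, and in SP, at 1116 against 923.

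**Figure D3:**
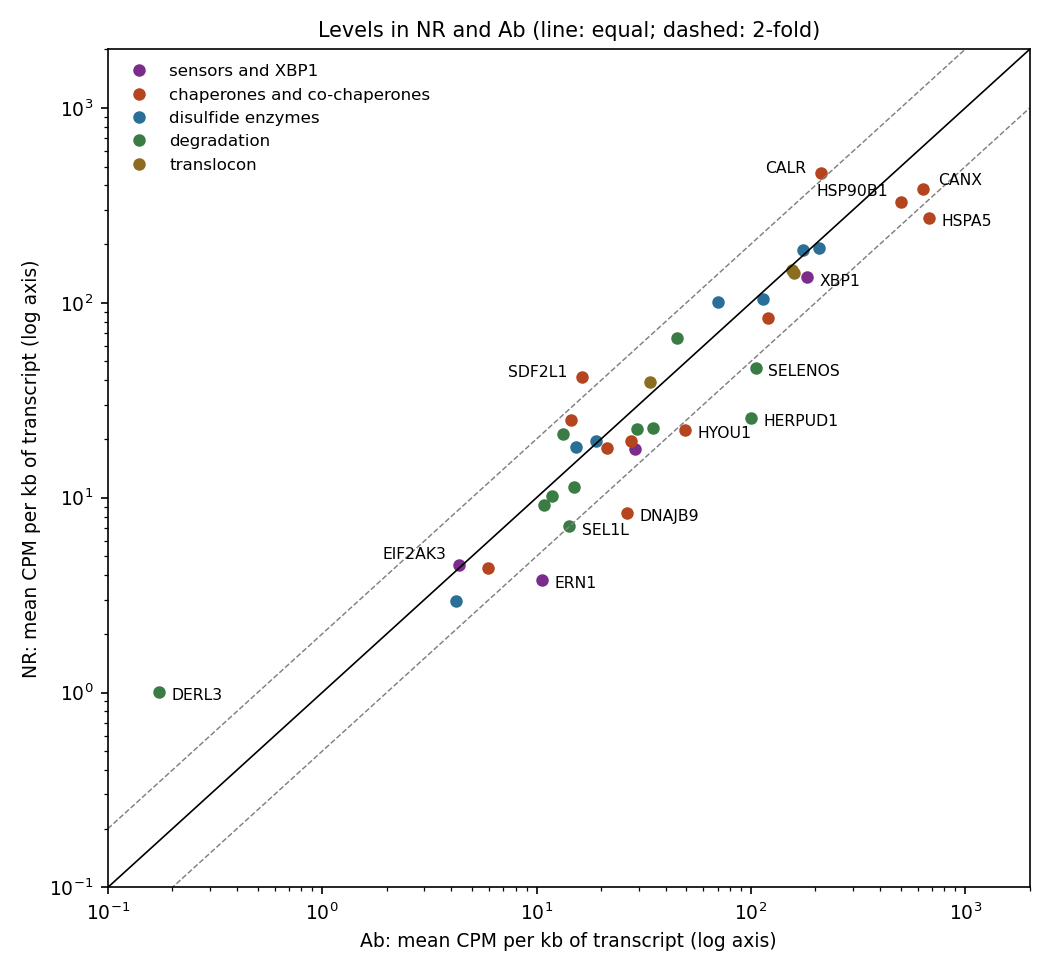
Mean level of each of the 37 members tested in NR (vertical) against Ab (horizontal), in CPM per kb of transcript on log axes (n = 3 libraries per group), coloured by role, with lines at equal levels and at 2-fold. CALR, SDF2L1 and DERL3 lie above the upper dashed line, and HSPA5 at 681 in Ab and 274 in NR lies under the lower one with HERPUD1, DNAJB9, ERN1, HYOU1 and SELENOS.

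Degradation genes also divided, with 8 of 11 lower (of all genes, 36.4% in NR and 36.6% in SP) and 3 higher (36.4% in each) in each nanoparticle group. HERPUD1, SELENOS, SEL1L, SYVN1, DERL2, DERL1, EDEM3 and EDEM1 fell, and DERL3, EDEM2 and OS9 rose. Over the 11 genes the median of log2 fold changes was -0.37 in NR and -0.47 in SP. The summed level was 720 ± 6.80 CPM in NR and 711 ± 15.5 in SP, against 1084 ± 22.2 in Ab (SD, n = 3), so that the sum was at 66.5% and 65.6% of Ab.

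HERPUD1 (chr16:56966054-56978776 in GRCh37), a membrane protein that gathers the retrotranslocation complex, fell the most of all members. It had 5750, 7239 and 5885 counts in Ab, 1777, 1069 and 1189 in NR and 1329, 1481 and 1407 in SP. Its level was 287 ± 10.96 CPM in Ab, 73.1 ± 4.05 in NR and 64.2 ± 3.60 in SP (SD, n = 3), with Ab far above both. The log2 fold change was -1.97 ± 0.05 (SE) in NR and -2.15 ± 0.05 in SP, with edgeR adjusted p of 4.54e-23 and 5.36e-23, a 3.93-fold and a 4.45-fold fall.

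SELENOS, the selenoprotein that links the derlins to the VCP ATPase, had 2599, 3224 and 2621 counts in Ab, 1507, 760 and 907 in NR and 1165, 1230 and 1177 in SP. It fell by 1.18 on the log2 scale in NR and by 1.23 in SP (SE 0.05 and 0.06), without overlap with Ab in CPM. SEL1L and SYVN1, the adaptor and the ubiquitin ligase of the central degradation complex, fell by 0.9965 and 0.61 in NR and by 0.89 and 0.66 in SP. The channel proteins DERL1 and DERL2 fell by 0.37 and 0.40 in NR and by 0.47 and 0.49 in SP.

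DERL3, the derlin best known from secretory cells, had 16, 9 and 9 counts in Ab, 77, 41 and 55 in NR and 69, 61 and 67 in SP. It was the least abundant member tested, at 0.174 ± 0.0837 CPM per kb in Ab and 1.01 ± 0.0881 in NR (SD, n = 3), and all Ab libraries were under all others. The log2 fold change was 2.57 ± 0.29 (SE) in NR and 2.53 ± 0.29 in SP. DERL3 passed the filter on low counts only through the groups where it is high, so its call is not independent of that filter, and with at least 10 counts required in every library it was not tested. Of its exonic bases 77.0% also lie in exons of another annotated gene, and with the strand of the counting not stated the source of these few counts is uncertain.

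Within the EDEM family of mannosidase-like lectins, which mark misfolded glycoproteins for degradation, EDEM2 rose while EDEM1 and EDEM3 fell. EDEM2 had 501, 674 and 485 counts in Ab, 1062, 553 and 620 in NR and 928, 947 and 856 in SP, with a log2 fold change of 0.67 ± 0.07 (SE) and 0.73 ± 0.07. EDEM1 had 2.86 ± 0.109 counts per count of EDEM2 in Ab, 1.56 ± 0.0477 in NR and 1.57 ± 0.0624 in SP (SD, n = 3). EDEM1 and EDEM3 fell by 0.21 and 0.23 on the log2 scale in NR and by 0.14 in SP, and in SP their libraries overlapped those of Ab in CPM. In SP the edgeR adjusted p of EDEM1 was 0.0486, and the call was lost without SP library 1 (0.0767), SP library 2 (0.123), Ab library 1 (0.152) or Ab library 2 (0.0654). That of EDEM3 was 0.0413, and the call was lost without SP library 1 (0.159), SP library 3 (0.113), Ab library 2 (0.175) or Ab library 3 (0.0866). DESeq2 called neither in SP (adjusted p 0.124 and 0.108), and of 13 alternatives 5 kept the call of EDEM1 and 6 that of EDEM3. With trends in GC content and length removed they were at -0.25 and -0.24 in SP. OS9, a lectin of the same complex, rose by 0.55 in NR and in SP, with 23.9% of its exonic bases shared with another gene.

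None of the disulfide enzymes changed by 2-fold. Of the 7 genes, 2 rose, 3 fell and 2 did not pass the test, in NR as in SP, which is near the shares of all genes (36.4% higher and 36.4% lower in NR, 36.4% and 36.6% in SP), and the median log2 fold change was 0.06 and 0.03. Their summed level was 1823 ± 34.4 CPM in NR, 1800.0 ± 23.4 in SP and 1816 ± 26.6 in Ab (SD, n = 3), and the libraries of the groups overlapped. The ends of the group were PDIA6 and ERO1B.

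PDIA6, a disulfide isomerase that acts with BiP, had 3037, 4194 and 3320 counts in Ab, 5994, 3132 and 3786 in NR and 4978, 5436 and 4843 in SP. In CPM it was higher in each NR and SP library than in Ab, with a log2 fold change of 0.53 ± 0.04 (SE) in NR and 0.55 ± 0.05 in SP. For PDIA6, 25.2% of exonic bases are shared with another annotated gene. ERO1B, the oxidase best known from pancreas that recharges disulfide isomerases, had 393, 534 and 460 counts in Ab, 379, 208 and 236 in NR and 337, 344 and 387 in SP, and fell by 0.51 and 0.36 on the log2 scale (SE 0.09 in each).

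The values of the isomerases depended on whether trends of fold change with length and GC content were removed. PDIA3, the isomerase that works with calnexin and calreticulin, fell by 0.13 in NR and 0.15 in SP on the log2 scale, and PDIA4 fell by 0.12 and 0.11. With those trends removed, PDIA3 was at -0.26 and -0.33 and PDIA4 at -0.21 and -0.20. The call of PDIA4 was kept in 11 of 13 alternatives in NR, and lost without NR library 2 (edgeR adjusted p 0.0527) and with library totals (0.0520). In SP it was kept in 8 of 13, and lost without SP library 3 (0.0755) or Ab library 1 (0.0587), with library totals (0.0811), without the filter (0.0653) and by DESeq2 (0.0602). PDIA5 rose by 0.25 and 0.27, or by 0.16 and 0.18 without those trends. P4HB, the classical disulfide isomerase, had a log2 fold change of 0.09 in NR (95% interval 0.0047 to 0.18, edgeR adjusted p 0.0651) and 0.06 in SP (-0.03 to 0.15, 0.229), and passed the test without Ab library 1 (0.13 and 0.10) and, in NR, with library totals (0.12), while without the trends it was at 0.03 and -0.05. ERO1A, the other ERO1 oxidase, had 0.06 (-0.05 to 0.17) and 0.03 (-0.09 to 0.14), and neither passed.

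Of the 3 translocon subunits, 1 rose, 1 fell and 1 did not pass the test, in NR as in SP, close to the shares of all genes (36.4% higher in each, 36.4% and 36.6% lower). SEC61A1, the channel itself, had 11102, 14197 and 11326 counts in Ab, 13416, 7408 and 8548 in NR and 11184, 12044 and 10936 in SP, with a log2 fold change of -0.07 (95% interval -0.15 to 0.0059) and -0.09 (-0.18 to -0.0079) and edgeR adjusted p of 0.104 and 0.0561. It passed in SP without Ab library 2 (0.0430), with all 9 libraries in one fit (0.0245) and with at least 10 counts in every library (0.0190), and in NR with that filter (0.0259). With the trends in GC content and length removed it was at -0.19 and -0.25. SEC61B, a small subunit of the channel, fell by 0.16 in NR and 0.22 in SP, and its call in NR was lost without NR library 3 (adjusted p 0.0678), while without the trends NR was at -0.26. SSR1, a subunit of the translocon-associated TRAP complex, rose by 0.21 and 0.14, and its call in SP was lost without SP library 2 (0.0526) or SP library 3 (0.0576), and its SP value was 0.04 without the trends. Their counts were 1710, 2330 and 1895 in Ab, 2140, 1155 and 1209 in NR and 1691, 1751 and 1614 in SP for SEC61B. For SSR1 they were 5950, 8856 and 6955 in Ab, 10064, 5212 and 6065 in NR and 7529, 8352 and 7759 in SP. The summed level of the 3 genes was 988 ± 2.18 CPM in NR, 956 ± 23.9 in SP and 975 ± 2.15 in Ab (SD, n = 3).

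Summed over all 38 members, the level was 9202 ± 39.6 CPM in NR, 9272 ± 86.8 in SP and 12830 ± 273 in Ab (SD, n = 3). The summed levels of sensors, chaperones and degradation genes thus each stood between 63.1% and 66.5% of Ab in NR and SP. Those of disulfide enzymes and translocon subunits stood between 98.1% and 101%. Abundant genes weigh most in these sums, which do not give the change of each gene. From Ab to NR, HSPA5 went from 2669 to 1073 CPM, CANX from 3129 to 1882 and HERPUD1 from 287 to 73.1. Each of the 3 lowered groups held genes that did not fall: EIF2AK3 among the sensors, CALR, SDF2L1 and CRELD2 among the chaperones, and DERL3, EDEM2 and OS9 among the degradation genes.

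The shape of the particle was compared directly in NR against SP. None of the 37 members passed an adjusted p of 0.05 by edgeR, or by DESeq2, where 0.443% of 14903 genes tested passed by edgeR. At an unadjusted p under 0.05 there were 6 members (16.2%, against 12.9% of all genes): SDF2L1, HERPUD1, XBP1, MANF and SSR1 higher in NR, and HYOU1 lower. The libraries of NR and SP did not overlap in CPM in 8 members (21.6%, against 17.8% of all genes).

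The log2 differences of members ran from -0.14 (ERO1B) to 0.21 (SDF2L1). For SDF2L1 the 95% interval was 0.08 to 0.34, and for HERPUD1, with a difference of 0.18, it was 0.07 to 0.29. The interval that reached furthest from 0 was that of DERL3, up to 0.43, a 1.35-fold difference, followed by that of SDF2L1, up to a 1.27-fold difference.

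Among the members, genes with the same promoter letters moved in both directions. Of the 25 genes with the ERSE letters, 16 were tested, and in NR against Ab 7 were higher and 8 lower with a median log2 fold change of -0.01, and in SP 7 and 7 with a median of 0.07 (of all genes, 36.4% were higher in each, and 36.4% in NR and 36.6% in SP lower). Of the 19 genes with the ERSE-II letters, 15 were tested, and 8 were higher and 4 lower in NR and in SP, with medians of 0.22 and 0.30. Among the 8 members with these letters, CALR, CRELD2 and PDIA6 rose and HSPA5, CANX, HSP90B1, ERO1B and XBP1 fell. Of the members with ERSE-II, HERPUD1 and HYOU1 fell and SDF2L1 rose. The 8 tested genes with the ERSE letters outside the member list included FICD, which fell by 1.71 in NR, and SYNPO and TRIM5, which rose by 1.40 and 1.47. A match is a description of the window and not a shown binding site.

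Other genes of the same pathways were read from 9 wider lists that share no gene with the members. The PERK arm and the integrated stress response moved furthest. Of its 15 genes, 12 fell and 2 rose in NR (edgeR adjusted p of at most 0.05, where 36.4% of all genes fell and 36.4% rose), 9 of them lower by at least 2-fold (10.3% of all genes), with a median log2 fold change of -1.57, and in SP the counts were the same with a median of -1.52. ATF4, the transcription factor whose translation PERK favours, had 15860, 20093 and 16507 counts in Ab, 8566, 4265 and 4746 in NR and 5718, 6405 and 6117 in SP, a log2 fold change of -1.36 and -1.52.

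CHAC1, a glutathione-degrading enzyme induced by ATF4, had 3616, 4540 and 3551 counts in Ab, 216, 131 and 136 in NR and 254, 211 and 195 in SP. All Ab libraries were above all others, and the log2 fold change was -4.35 ± 0.07 (SE) in NR and -4.14 ± 0.08 in SP. DDIT3, the transcription factor CHOP, had 862, 1141 and 825 counts in Ab, 79, 42 and 35 in NR and 92, 76 and 70 in SP, with -3.94 ± 0.11 and -3.56 ± 0.10, and 39.6% of its exonic bases are shared with another gene. The 2 genes that rose were EIF2AK1 and EIF2AK4, kinases that, like PERK, phosphorylate eIF2α, by 0.50 and 0.20 in NR.

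On the cytosolic side of ER-associated degradation, 12 of 17 genes tested fell and 2 rose in NR, with a median log2 fold change of -0.31, and 12 fell and 3 rose in SP, with a median of -0.29. VCP, the ATPase that pulls proteins out of the membrane, rose by 0.74 and 0.81, and UBE2J1, a ubiquitin-conjugating enzyme of the ER, fell by 0.62 and 0.64. Genes of ER export and retrieval, the COPII coat and cargo receptors, had 13 of 18 higher and 2 lower in NR (median 0.27) and 12 higher and 1 lower in SP (median 0.31), where 36.4% of all genes were higher in each and 36.4% and 36.6% lower. KDELR3, a receptor that returns ER proteins from the Golgi, rose by 1.94 and 1.83, and SEC23A, a subunit of the coat, by 1.12 and 1.14.

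**Figure D4:**
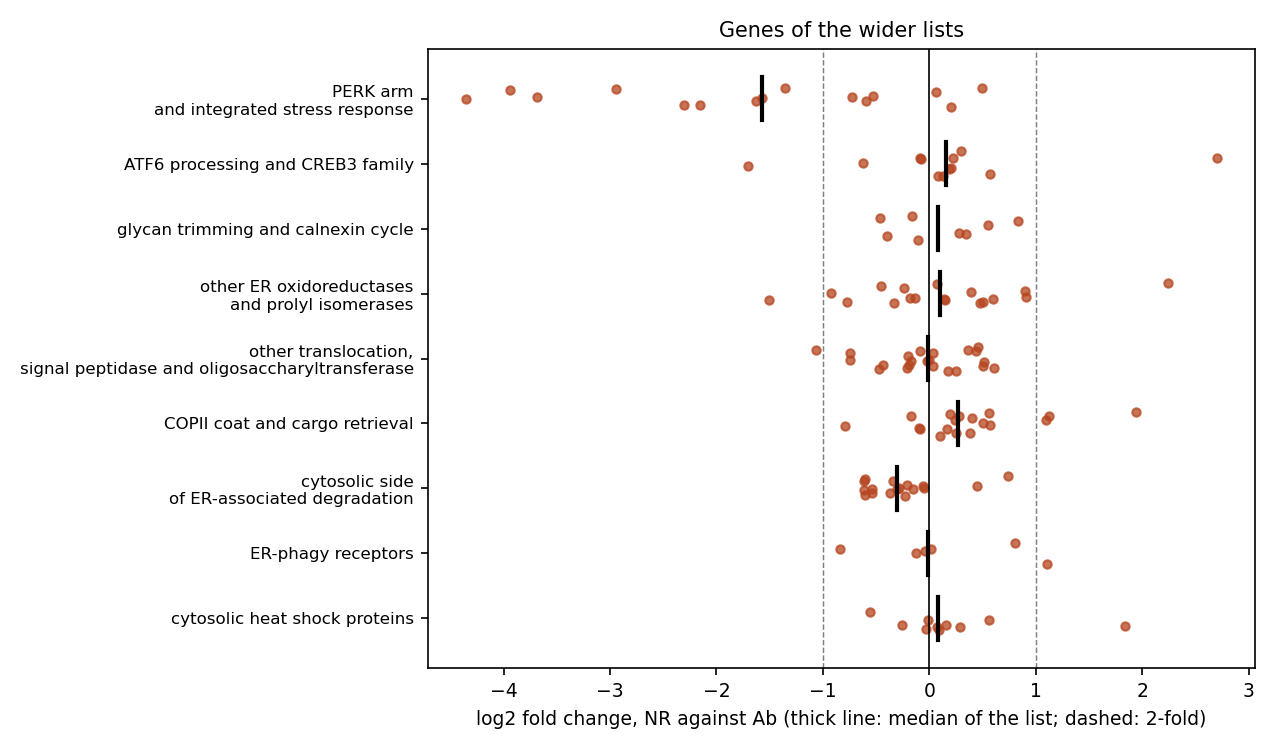
Log2 fold change in NR against Ab (horizontal axis) of each tested gene of the 9 wider lists, 3 libraries per group, with a thick line at the median of each list and dashed lines at 2-fold. The PERK arm and integrated stress response has its median at -1.57, the cytosolic side of ER-associated degradation at -0.31 and the COPII coat and cargo retrieval at 0.27.

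The remaining lists held genes called in both directions, and their counts are to be read against all genes tested, of which the higher ones made up 36.4% in each nanoparticle group and the lower ones 36.4% (NR) and 36.6% (SP). In NR, genes of ATF6 processing and the CREB3 family had 6 higher and 2 lower of 12 tested, and in SP 8 higher and 3 lower of 13. These include CREB3L3 in both and CREB3L1 as the added gene in SP, which with at most 12 counts in an Ab library passed the filter through the nanoparticle groups, where they are high. FICD, which modifies BiP with AMP, fell by 1.71 in NR and 1.59 in SP, and TMBIM6, an ER membrane protein that limits cell death, by 0.62 and 0.66. Glycan trimming genes had 4 higher and 4 lower of 8 in both, with MLEC, a glycan-binding lectin, higher by 0.84 and 0.89, and UGGT1, the folding sensor that adds glucose back, by 0.55 and 0.61. Other oxidoreductases and prolyl isomerases had 9 higher and 8 lower of 18 in NR and 6 and 8 in SP, with FKBP7 higher by 2.24 and 2.08 and TXNDC12 lower by 1.51 and 1.62, although 65.1% of the exonic bases of TXNDC12 are shared with another gene.

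Other translocation, signal peptidase and oligosaccharyltransferase genes had 8 higher and 8 lower of 22 in NR and 8 and 9 in SP. SEC11C, a signal peptidase subunit, fell by 1.07 and 1.11, and SEC63, which brings BiP to the channel, by 0.75 and 0.84. ER-phagy receptors had 2 higher and 2 lower of 6 in both groups, with RETREG1 higher by 1.11 and 1.21 and CCPG1 lower by 0.84 and 0.77 (40.0% of its exonic bases shared). Cytosolic heat shock proteins had 4 higher and 2 lower of 10 in both, with HSPB1 higher by 1.84 and 1.87 and HSPA8 by 0.56 and 0.53.

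Several properties of the libraries moved with the groups. Mitochondrial genes took 4.36% to 4.66% of counts in NR and SP libraries and 3.41% to 3.71% in Ab. Of 7 epithelial markers, KRT8, KRT18 and CLDN4 were well detected and KRT19 had at most 1 count in any library. Their summed level was 2237 to 2387 CPM in NR and SP and 887 to 952 in Ab, most of it KRT8, and CDH1 had 5, 5 and 9 counts in Ab against 79 to 159 elsewhere. MUC5AC, the most abundant of 6 gastric markers, was lower in NR and SP by 2.15 and 1.75 on the log2 scale, and that list's sum was 24.2 to 50.5 CPM against 108 to 118 in Ab. The other 2 of that list tested, PGC and GKN1, were higher, PGC by 2.77 and 2.32 and GKN1 by 1.57 and 1.03, but with 3 to 11 counts in the Ab libraries both passed the filter on low counts through the nanoparticle groups, where they are high.

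Of 4 plasma cell markers, JCHAIN was at 0 in every library and SDC1, which epithelial cells also carry, made up most of the sum, 102 to 110.3 CPM in NR and SP and 87.4 to 102 in Ab. Of 5 leukocyte markers, PTPRC and CD68 had at most 1 count in a library, and the sum, 2.95 to 6.04 CPM in NR and SP and 0.581 to 1.35 in Ab, was mostly CSF1R in NR and SP and CD14 in Ab. The 3 endothelial markers matched summed to 20.7 to 24.1 CPM in NR and SP and 3.59 to 5.13 in Ab, with CDH5 the most abundant. The 4 fibroblast markers summed to 66.6 to 76.5 CPM and 16.5 to 41.5, with COL1A1 the most abundant. Among them DCN and PDGFRB had at most 21 counts in Ab and 150 to 518 in NR and SP, COL1A1 did not pass the test (edgeR adjusted p 0.131 in NR and 0.0941 in SP), and COL1A2 had 198, 278 and 33 counts in Ab, 37, 0 and 0 in NR and 49, 49 and 43 in SP. The part of these differences in the results for the ER genes was not tested.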

How the data were processed

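The deposited values were whole read counts per Ensembl gene, 9 libraries in all, not scaled. The authors filtered reads for adapters, unknown bases and low quality, aligned them with HISAT2 2.1.0 and used DESeq2 1.16.1; their reporting summary gives hg19 and the submitters' processing notes mm9, while all 60880 IDs are human. The counter's name differs between sources, and annotation release and strand are not given in the sources used here. Names, positions and transcript lengths came from GENCODE 44 on GRCh37, which matched 59858 IDs after version suffixes were removed; the remaining 1022 IDs took 0.115% of a library or less.

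Each pair of groups was fitted without the other group, using edgeR 4.0.16 under R 4.3.3 (TMM, filterByExpr with a minimum count of 10 and total of 15, robust quasi-likelihood test, Benjamini-Hochberg over all genes tested). On simulated counts with 200 genes changed 2-fold, 94.5% (NR against Ab), 93.5% (SP against Ab) and 96% (NR against SP) were recovered, and 5.5%, 7.88% and 9.43% of the genes called were false. These false shares were all above the 0.05 that the adjusted p aims at. Far more genes were called against Ab in the data (36.4% higher and 36.4% lower in NR), so these rates need not hold there. A count of 3, the limit that 0 allows, was 0.114 to 0.216 CPM, counting error only. Per-gene chi-square between libraries of a group was 1.84 to 7.44 (1 being counting noise), so counts of each pair differed beyond it, which does not tell separate cultures from repeat preparations of the same RNA. Members, roles and lists were chosen with earlier results of these data known. Counts in each library are given for members past 2-fold, the sensors and XBP1, and the highest and lowest of each role. Of each wider list, the 2 genes with the largest changes in NR against Ab and a mean of at least 100 counts are named. EDEM2, SEC61A1, ATF4, EIF2AK1, EIF2AK4, SYNPO, TRIM5, CREB3L1, CREB3L3 and SPCS2 were added after their values were seen. Promoters of DERL1, DERL3 and PDIA3 and the marker PECAM1 were not matched. Alternatives were DESeq2 1.42.0, RLE size factors, library totals, other count filters, a minimum of 1.5-fold, all 9 libraries in one fit, a replicate block, each library left out and, added later, removal of length and GC trends (local regression, span 0.3). Python 3.11.15, numpy 2.4.6, pandas 2.3.3 and matplotlib 3.10.9 were used.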

Additional observations from a re-analysis of the deposited data

Results flagged for a closer look

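SPCS2, a signal peptidase subunit of the wider translocation list, was the only gene of the members and wider lists to pass the test between the particle shapes: it had 3315, 4362 and 3814 counts in Ab, 3062, 1861 and 2027 in NR and 3041, 3565 and 2951 in SP, with a log2 fold change in NR against SP of -0.2092 and an edgeR adjusted p of 0.0470, which was kept in 1 of 6 fits with a library left out (adjusted p 0.0375 to 0.220) and lost with library totals (0.0517) and with all 9 libraries in one fit (0.0763). Of all 14903 genes tested between the shapes, 0.443% passed, so a single call in these lists is near that share.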

How the results depend on the processing

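Of the counts of members called, those that moved by over 1.5 times were the 2-fold ones under a minimum of 1.5-fold, to 16 in NR against Ab and 16 in SP against Ab. With a library left out, the members past the adjusted p were 32 to 34 in NR and 31 to 33 in SP, those past 2-fold 9 to 10 and 8 to 9, and those between NR and SP 0. DESeq2 called 30 in SP. Shares of all genes under these settings are not given here, so these counts describe only how stable the member calls were. The replicate numbers did not pair the libraries (correlations of deviations between -0.0317 and 0.0279), and with the number as a block 33 and 35 members passed in NR and SP, 9 in each past 2-fold, and 0 between NR and SP, with SEC61A1 in SP gained (adjusted p 0.0441). ERO1A in NR and SP changed sign without Ab library 1 (-0.0035 and -0.04), and EIF2AK3 in NR (-0.04) and P4HB in SP (-0.05) with length and GC trends removed; the cause was not tested. That removal moved 33 of 45 group and list medians and 21 of 32 named members' values by more than the spread between replicates, for example the median of all members from -0.24 to -0.31 in NR and from -0.22 to -0.33 in SP, of the translocon from -0.07 to -0.19 and from -0.09 to -0.24, of disulfide enzymes in SP from 0.03 to -0.05, and SSR1 in SP from 0.14 to 0.04; with a library left out, 40 of 270 medians moved so. Median shifts of all genes from scaling were at most 0.03. The filter of 10 counts in every library left DERL3 out. Precision rests on 3 libraries a group.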
